A study of Rattus norvegicus with 10 samples.

Results

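The mRNA levels of 10 genes that cut or protect the extracellular matrix were followed in kidneys of rats fed diets with or without choline. They are the matrix metalloproteinases Mmp2, Mmp3, Mmp7, Mmp9, Mmp10, Mmp12 and Mmp14 and the tissue inhibitors of metalloproteinases Timp1, Timp2 and Timp3. The rows were found by gene symbol among the 14506 genes that the 29214 probe sets of the array name, and the list of 10 was drawn up with earlier results of these data known. Every one of the 10 has exactly 1 probe set with its symbol, so no choice between probe sets had to be made.

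Male weanling Wistar rats received their diet for 6 days, and total RNA of the kidney was hybridised to 10 expression arrays. The diets lacked or contained choline, a nutrient needed for phosphatidylcholine and methyl group supply, and their fat was either vegetable oil or menhaden fish oil. The labels call the vegetable fat corn oil, whereas the protocol names corn oil together with hydrogenated oils. All 5 groups consist of 2 arrays, and each array holds a pool of 3 animals. The necrotic corn oil and deficient corn oil kidneys both came from the choline-deficient corn oil diet and differ by the word necrotic in the label. The control corn oil kidneys had choline with the same fat, and menhaden oil was fed without choline in the deficient fish oil group and with it in the control fish oil group. The protocol lists 4 diets and gives no rule by which kidneys were assigned to the pools called necrotic. P-values therefore measure the spread between pools. The values are log2 intensities after robust multi-array averaging (RMA), with array medians from 7.28 to 7.43. So few arrays per group set a limit on precision.

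Matrix metalloproteinases are zinc-dependent endopeptidases that are made as inactive proenzymes, in which a cysteine of the propeptide blocks the zinc, and that become active once the propeptide is removed. TIMPs bind the active site and stop the enzyme, and TIMP2 also serves as an adaptor through which the membrane-anchored MMP14 activates pro-MMP2. In the kidney, MMP2 and MMP9 are known as gelatinases that degrade type IV collagen of basement membranes, and MMP7 is known to be made by injured tubular epithelium. An mRNA level shows neither the activation of a proenzyme nor the balance between enzyme and inhibitor.

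Mmp3, Mmp7, Mmp10 and Mmp12 lie in a cluster of metalloproteinase genes on rat chromosome 8. The order along the chromosome in the GRCr8 assembly is Mmp13, Mmp12, Mmp1b, Mmp3, Mmp1, Mmp10, Mmp8, Mmp27, Mmp20 and Mmp7. Promoters of metalloproteinase genes are a textbook target of AP-1, a dimer of Fos and Jun proteins, so the 250 bases upstream of the start were searched for the AP-1 motif TGANTCA, which reads the same on both strands. RefSeq sequences were used for 7 of the 10 genes. No sequence was matched to Mmp2, Mmp9 and Mmp14, so their windows were not searched. The 4 cluster members each held 1 match, always with the letters TGAGTCA, whereas the windows of Timp1, Timp2 and Timp3 held no exact match. Sites that differ from the motif were not searched for, and the Timp1 window holds TGAGTAA, which differs from TGAGTCA in 1 letter. Of 33469 promoter windows of the same length in the assembly, 2122 held the motif, or 6.34%. The windows of the 4 cluster members are shown because they share the motif although the genes differed in how they moved, and that of Timp1 because this gene moved most among the inhibitors. They run 5′ to 3′ up to the last base before the start, with the AP-1 motif in capitals, and lie at chr8:12925031-12925280 on the plus strand for Mmp3, chr8:13132793-13133042 on the plus strand for Mmp7, chr8:12974457-12974706 on the plus strand for Mmp10, chr8:12866402-12866651 on the plus strand for Mmp12 and chrX:3771123-3771372 on the minus strand for Timp1.
Mmp3: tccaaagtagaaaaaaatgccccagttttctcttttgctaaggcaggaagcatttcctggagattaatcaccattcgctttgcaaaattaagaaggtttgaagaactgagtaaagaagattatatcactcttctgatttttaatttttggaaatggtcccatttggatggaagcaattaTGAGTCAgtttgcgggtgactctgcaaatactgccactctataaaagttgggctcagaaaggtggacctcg
Mmp7: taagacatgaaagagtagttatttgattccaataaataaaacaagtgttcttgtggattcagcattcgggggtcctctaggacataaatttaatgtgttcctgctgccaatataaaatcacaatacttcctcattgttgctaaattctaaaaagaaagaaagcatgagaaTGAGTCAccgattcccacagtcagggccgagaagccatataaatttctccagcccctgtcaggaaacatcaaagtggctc
Mmp10: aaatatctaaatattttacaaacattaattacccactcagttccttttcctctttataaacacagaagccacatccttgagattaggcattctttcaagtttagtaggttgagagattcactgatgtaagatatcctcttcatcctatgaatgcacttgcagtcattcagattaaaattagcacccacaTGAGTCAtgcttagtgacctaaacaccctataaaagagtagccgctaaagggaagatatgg
Mmp12: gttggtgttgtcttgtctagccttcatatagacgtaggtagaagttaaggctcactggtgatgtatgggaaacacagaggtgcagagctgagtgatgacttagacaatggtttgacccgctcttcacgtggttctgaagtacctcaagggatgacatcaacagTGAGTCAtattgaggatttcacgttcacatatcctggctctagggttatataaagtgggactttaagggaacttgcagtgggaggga
Timp1: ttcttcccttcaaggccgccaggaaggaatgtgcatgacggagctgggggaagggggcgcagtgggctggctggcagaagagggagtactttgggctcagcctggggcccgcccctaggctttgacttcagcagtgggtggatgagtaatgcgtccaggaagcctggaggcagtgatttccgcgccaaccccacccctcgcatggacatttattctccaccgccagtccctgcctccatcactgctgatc
The motif began 71 bases before the start in Mmp3, 80 in Mmp7, 61 in Mmp10 and 87 in Mmp12. Among the neighbours, Mmp13 held a match with the letters TGACTCA at 66 bases and Mmp8 held none. A match in these windows is a description of the sequence only, and binding was not measured.

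Mmp7, or matrilysin, is a small metalloproteinase of epithelial cells that lacks the hemopexin domain of most relatives. Mmp7 read 8.59 and 8.90 in the necrotic corn oil pools, 6.27 and 7.42 in the deficient corn oil pools, 5.35 and 5.16 in the control corn oil pools, 5.57 and 5.15 in the deficient fish oil pools and 5.56 and 5.69 in the control fish oil pools. The necrotic pools were the highest, the deficient corn oil pools lay between, and both corn oil groups without choline were above all other arrays. Among the 3 remaining groups the order was control fish oil, deficient fish oil and control corn oil, and the arrays of the deficient fish oil group overlapped those of control corn oil. Mmp7 rose in the necrotic against the control corn oil kidneys by 3.49 ± 0.32 on the log2 scale (moderated SE, 11.2-fold, limma adjusted p = 0.00023), the largest difference of the 10 genes. It was also higher in the necrotic than in the deficient corn oil kidneys, by 1.90 ± 0.32 (adjusted p = 0.00896), although not without necrotic replicate 2 (1.74, adjusted p = 0.0603). The difference of 1.60 ± 0.32 between deficient and control corn oil kidneys missed the threshold of 0.05 (adjusted p = 0.0625). Here the deficient corn oil pools were far apart: the difference was 2.17 without replicate 1 (adjusted p = 0.00598) and 1.02 without replicate 2 (adjusted p = 0.353).

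Mmp12, the macrophage elastase, followed another order. Its values were 7.43 and 8.70 in the necrotic corn oil pools, 8.19 and 9.03 in the deficient corn oil pools, 6.85 and 6.73 in the control corn oil pools, 6.01 and 6.23 in the deficient fish oil pools and 6.32 and 5.95 in the control fish oil pools. The deficient corn oil pools had the highest mean and overlapped the necrotic pools, control corn oil came next, and all 4 fish oil arrays were below every corn oil array. Mmp12 was lower in the deficient fish oil than in the deficient corn oil kidneys by a difference of -2.49 ± 0.40 (5.61-fold, adjusted p = 0.0204). This call was lost without deficient corn oil replicate 2 (-2.07, adjusted p = 0.122), without deficient fish oil replicate 1 (-2.38, adjusted p = 0.125) and without deficient fish oil replicate 2 (-2.60, adjusted p = 0.123). Against the control corn oil kidneys the gene was higher by 1.82 ± 0.40 in the deficient (adjusted p = 0.0773) and by 1.27 ± 0.40 in the necrotic corn oil kidneys (adjusted p = 0.0529), neither of which passed. The necrotic difference was 1.91 without necrotic replicate 1 (adjusted p = 0.00884) and 0.63 without necrotic replicate 2 (adjusted p = 0.222).

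Mmp3 and Mmp10, the stromelysins 1 and 2, passed the test in none of the 9 contrasts, 7 between groups and 2 interactions of choline with oil. Mmp3 read 5.99 and 5.79 in the necrotic corn oil pools, 5.65 and 5.97 in the deficient corn oil pools, 5.35 and 5.72 in the control corn oil pools, 6.02 and 5.76 in the deficient fish oil pools and 5.64 and 5.64 in the control fish oil pools. Mmp10 read 5.004 and 4.52, 4.29 and 4.81, 4.59 and 4.27, 4.40 and 4.45, and 4.45 and 4.53 in the same order of groups. All neighbouring groups of Mmp10 overlapped, and those of Mmp3 did except deficient corn oil and control fish oil. The difference between necrotic and control corn oil kidneys was 0.35 ± 0.17 for Mmp3 (adjusted p = 0.193) and 0.34 ± 0.21 for Mmp10 (adjusted p = 0.312). Both genes read low: the mean over the 10 arrays was 5.75 for Mmp3 and 4.53 for Mmp10. These means were above those of 25.1% and 10.6% of probe sets. Whether a change could be seen at such values was not tested. Cross-hybridisation between these close relatives was not tested either.

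The neighbours of these genes in the cluster differed among themselves as well. Mmp8, the neutrophil collagenase, rose by 1.68 ± 0.21 in the necrotic against the control corn oil kidneys (adjusted p = 0.001), with 7.40 and 6.90 in the necrotic, 6.49 and 5.98 in the deficient and 5.54 and 5.39 in the control corn oil pools. Mmp13, a collagenase whose window carries the AP-1 motif, also read low, between 4.72 and 5.21 on all 10 arrays. It differed by 0.18 ± 0.19 in the same comparison (limma adjusted p = 0.564). Of the 9 measured genes of the cluster, Mmp7 and Mmp8 passed the test in that comparison. Of all named genes 13.3% rose and 14.8% fell in it.

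**Figure D1:**
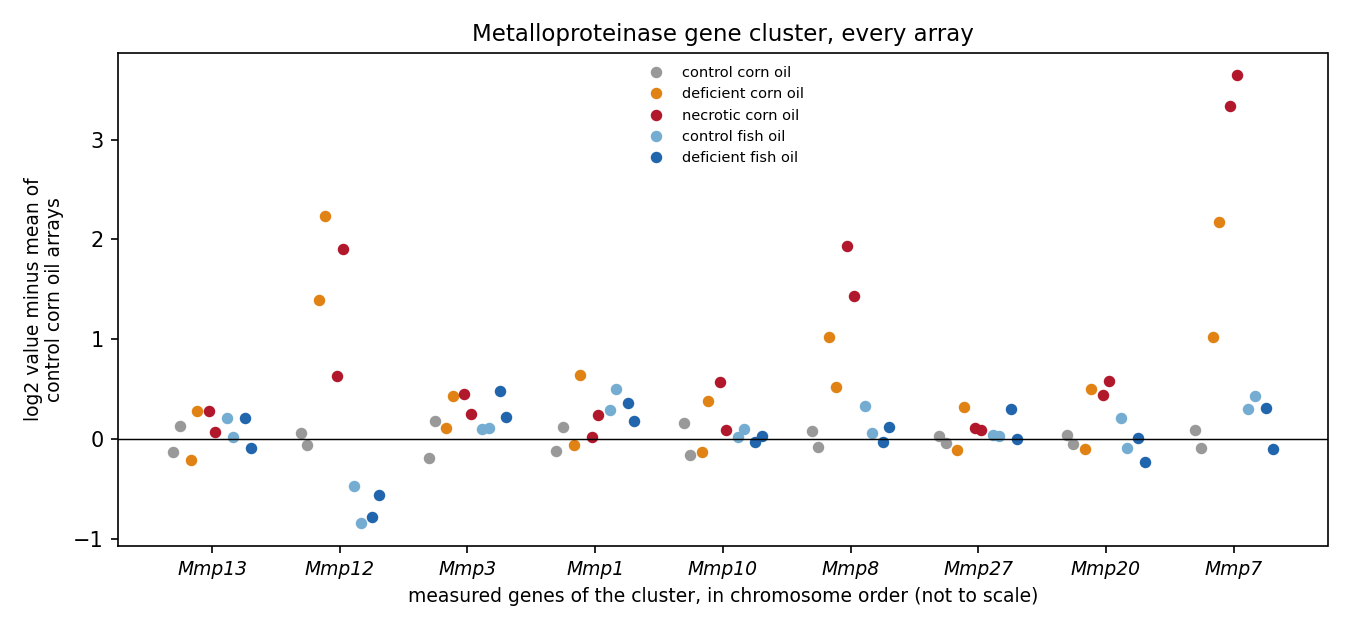
Log2 value minus the mean of the control corn oil arrays (vertical axis) for the 9 measured genes of the metalloproteinase cluster in chromosome order, not to scale; a point is 1 array, coloured by group. The necrotic points of Mmp7 lie more than 3 units above 0, Mmp12 and Mmp8 spread upwards in both corn oil groups without choline, and the other genes stay within 1 unit of 0.

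Mmp9, or gelatinase B, had the largest difference of the 10 genes between the oils with choline given. It read 10.04 and 9.45 in the necrotic corn oil pools, 8.66 and 8.59 in the deficient corn oil pools, 9.63 and 9.96 in the control corn oil pools, 7.75 and 8.20 in the deficient fish oil pools and 7.50 and 7.91 in the control fish oil pools. The control and necrotic corn oil kidneys overlapped at the top, the deficient corn oil pools were below both, and the 4 fish oil arrays were the lowest. With choline in the diet, Mmp9 was lower under fish oil than under corn oil by a difference of -2.08 ± 0.24 (4.24-fold, adjusted p = 0.0196), the 16th largest absolute difference of the 29214 probe sets. The call was lost without any single one of the 4 arrays: the adjusted p was 0.107 without control corn oil replicate 1, 0.203 without replicate 2, 0.143 without control fish oil replicate 1 and 0.0879 without replicate 2. The difference itself then ranged from -2.29 to -1.88. Within corn oil, Mmp9 was higher in the necrotic than in the deficient kidneys by 1.12 ± 0.24 (adjusted p = 0.023). This call was lost without necrotic replicate 1 (0.82, adjusted p = 0.108), deficient replicate 1 (1.15, adjusted p = 0.108) or deficient replicate 2 (1.09, adjusted p = 0.0719). The necrotic and control corn oil kidneys differed by -0.05 ± 0.24 (adjusted p = 0.917), and deficient and control corn oil by -1.17 ± 0.24 (adjusted p = 0.0663). Without choline, deficient fish oil minus deficient corn oil kidneys gave -0.65 ± 0.24 for Mmp9 (limma adjusted p = 0.296). This was smaller in size than the differences of Mmp12, Timp1 and Mmp7 (-1.49 ± 0.32, adjusted p = 0.066). Deficient fish oil minus necrotic corn oil kidneys gave -1.77 ± 0.24 for Mmp9 (limma adjusted p = 0.00129). Oil and the necrotic label cannot be told apart there.

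Mmp2, gelatinase A, and Mmp14, the membrane-type enzyme that activates it, had the necrotic pools at the top and the fish oil pools at the bottom. Mmp2 read 10.23 and 10.45 in the necrotic corn oil pools, 9.41 and 9.60 in the deficient corn oil pools, 9.72 and 9.86 in the control corn oil pools, 8.82 and 9.23 in the deficient fish oil pools and 8.84 and 9.30 in the control fish oil pools. Mmp14 read 10.83 and 11.10, 9.73 and 10.14, 9.75 and 9.91, 9.52 and 9.65, and 9.09 and 9.41 in the same order. For both genes the necrotic pools were above the other 8 arrays and the 4 fish oil arrays were below the 6 corn oil arrays. Mmp14 rose in the necrotic against the control corn oil kidneys by 1.13 ± 0.18 (2.20-fold, adjusted p = 0.00273) and against the deficient corn oil kidneys by 1.03 ± 0.18 (adjusted p = 0.00959). The second call was lost without necrotic replicate 2 (0.89, adjusted p = 0.0631) or deficient replicate 1 (0.82, adjusted p = 0.0655). Mmp2 was higher in the necrotic than in the deficient corn oil kidneys by 0.83 ± 0.19 (adjusted p = 0.0302), a call lost without any single one of the 4 arrays (differences from 0.72 to 0.95). Its difference of 0.54 ± 0.19 from the control corn oil kidneys did not pass (adjusted p = 0.0827). With choline given, the fish oil minus corn oil difference was -0.72 ± 0.19 for Mmp2 (adjusted p = 0.221) and -0.58 ± 0.18 for Mmp14 (adjusted p = 0.271), and neither passed.

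Timp1 is the soluble inhibitor that is induced in many injured tissues. It read 13.01 and 13.05 in the necrotic corn oil pools, 11.72 and 12.78 in the deficient corn oil pools, 10.22 and 10.19 in the control corn oil pools, 10.11 and 9.67 in the deficient fish oil pools and 9.69 and 9.61 in the control fish oil pools. The groups followed in that order without overlap among the corn oil groups, the fish oil groups overlapped each other, and all 4 fish oil arrays were below every corn oil array. Timp1 rose by 2.83 ± 0.29 in the necrotic (7.12-fold, adjusted p = 0.000384) and by 2.05 ± 0.29 in the deficient corn oil kidneys (4.14-fold, adjusted p = 0.0181), both against control corn oil. It was the only one of the 10 genes that passed in the deficient corn oil kidneys against their controls. That call was lost without control corn oil replicate 1 (2.07, adjusted p = 0.133) or replicate 2 (2.04, adjusted p = 0.151). Timp1 was lower in the deficient fish oil than in the deficient corn oil kidneys, with a difference of -2.36 ± 0.29 (5.14-fold, adjusted p = 0.0078), which was lost without deficient fish oil replicate 2 (-2.14, adjusted p = 0.0761). The necrotic and deficient corn oil kidneys differed by 0.78 ± 0.29 (adjusted p = 0.146). This was 1.31 without deficient corn oil replicate 2 (adjusted p = 0.00544) and 0.25 without replicate 1 (adjusted p = 0.564).

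Timp2, the partner of MMP14 in the activation of pro-MMP2, and Timp3, the inhibitor that binds to the matrix itself, moved in opposite directions. Timp2 read 11.50 and 11.62 in the necrotic corn oil pools, 10.42 and 10.65 in the deficient corn oil pools, 10.59 and 10.76 in the control corn oil pools, 10.24 and 10.44 in the deficient fish oil pools and 10.12 and 10.46 in the control fish oil pools. Timp3 read 12.43 and 12.13, 13.17 and 12.98, 13.07 and 13.17, 13.01 and 13.03, and 13.05 and 12.78 in the same order. The necrotic pools were the highest of the 10 arrays for Timp2 and the lowest for Timp3, and neighbouring groups among the other 4 overlapped for both genes. Timp2 rose by 0.89 ± 0.16 in the necrotic against the control corn oil kidneys (adjusted p = 0.00458) and by 1.03 ± 0.16 against the deficient corn oil kidneys (adjusted p = 0.00544). Timp3 fell by 0.84 on the log2 scale (SE 0.15, adjusted p = 0.00473) and by 0.79 (SE 0.15, adjusted p = 0.0129) in the same comparisons. The last call was lost without necrotic replicate 2 (-0.64, adjusted p = 0.0753) or deficient replicate 1 (-0.69, adjusted p = 0.0898). In the deficient against the control corn oil kidneys Timp2 differed by -0.14 ± 0.16 and Timp3 by -0.04 ± 0.15, and neither passed.

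**Figure D2:**
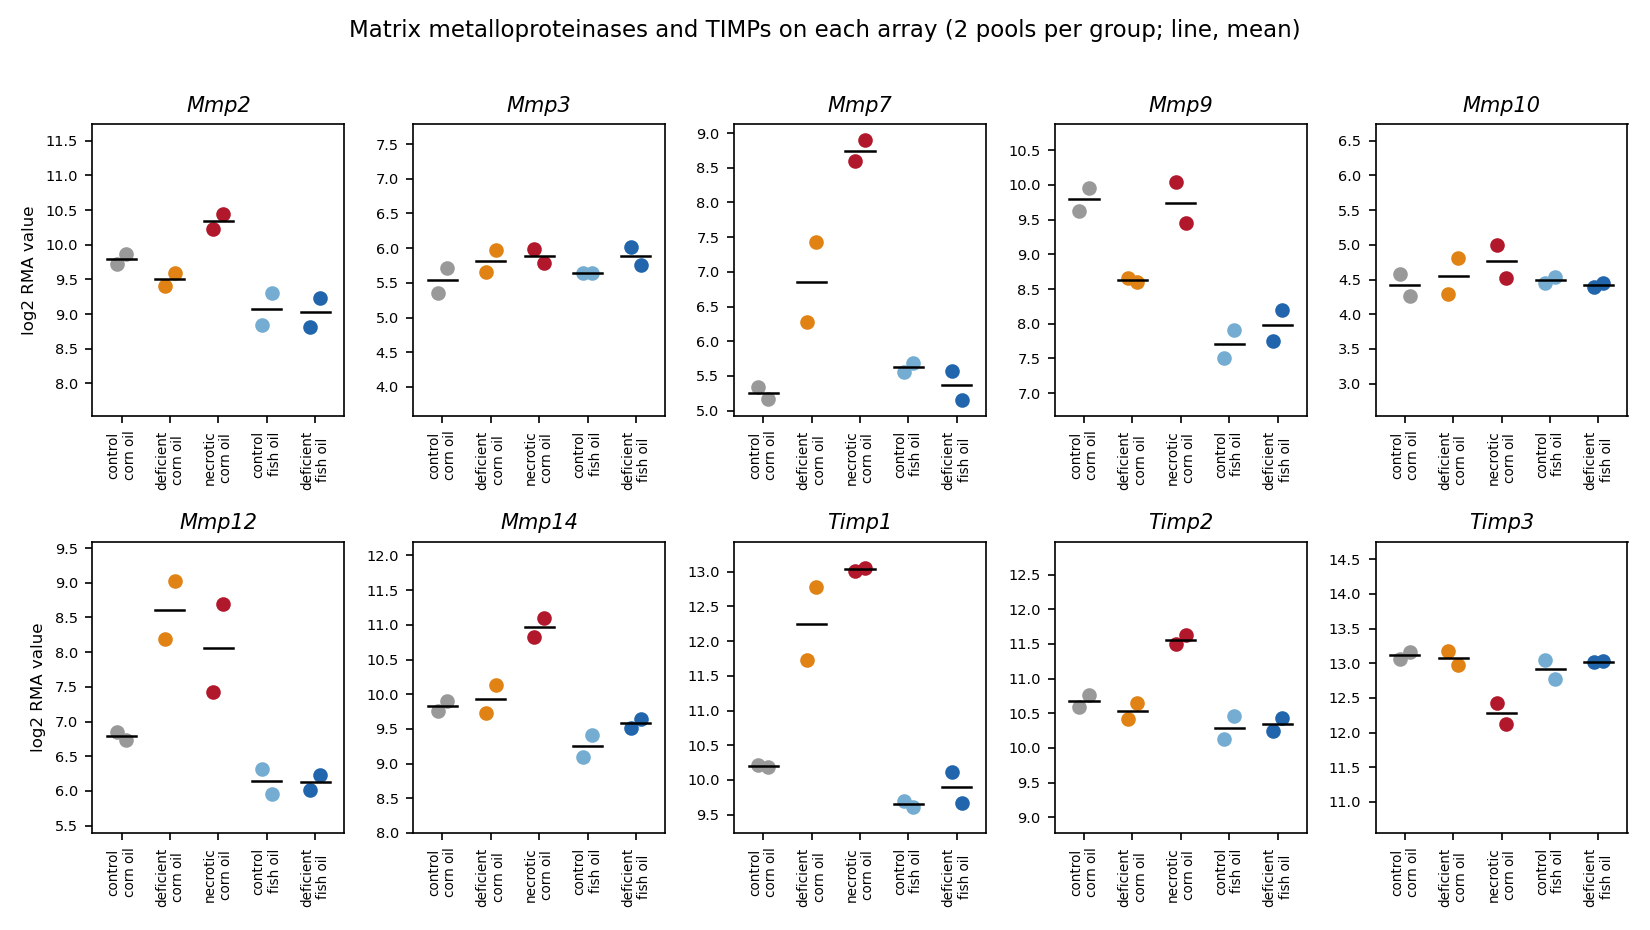
Log2 RMA value (vertical axis, with its own range for each gene) of the 10 genes on every array; a point is 1 pool of 3 animals and a line the mean of 2 pools. Mmp7 and Timp1 step up from control through deficient to necrotic corn oil, Mmp9 splits corn from fish oil, and Timp3 is lowest in the necrotic pools.

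Counted by comparison, 4 of the 10 genes rose and 1 fell in the necrotic against the control corn oil kidneys, where 10.2% of all probe sets were called higher and 10.7% lower. In the necrotic against the deficient corn oil kidneys 5 rose and 1 fell, against 4.71% of probe sets higher and 5.08% lower. In the deficient against the control corn oil kidneys 1 rose (0.893% of probe sets called higher). The same choline comparison under fish oil called 0 of the 10 genes and 0% of probe sets in limma, with 1036 of 29214 probe sets and 0 of the 10 genes at an unadjusted p under 0.05. Its differences for the 10 genes ran from -0.26 for Mmp7 to 0.33 for Mmp14, each with an adjusted p of 1.00. Control fish oil against control corn oil called 1 gene lower, Mmp9, with 0.0993% of probe sets called lower. Deficient fish oil against deficient corn oil called 2 lower, Mmp12 and Timp1 (1.39% of probe sets called lower). Deficient fish oil against necrotic corn oil called 7 lower and Timp3 higher, with 10.5% of probe sets lower and 9.25% higher, and here Mmp7 differed by -3.38 ± 0.32 (10.4-fold, adjusted p = 0.000239). Mmp12 was lost there without deficient fish oil replicate 1 (-1.83, adjusted p = 0.0569), and Timp3 without necrotic replicate 2 (0.59, adjusted p = 0.0526) or deficient fish oil replicate 2 (0.73, adjusted p = 0.0515). A fit on the compared groups alone, with a smaller basis for the spread, called 0 of the 10 in the deficient against the control corn oil kidneys, 1 in the necrotic against the deficient ones and 0 in both comparisons of fish with corn oil that leave out the necrotic pools. These comparisons share groups and so are not independent of each other. The shares above are of all probe sets, and those of named genes alone, used for the lists below, were larger. In the necrotic kidneys 13.3% were higher and 14.8% lower than in control corn oil, and 6.41% and 7.8% than in deficient corn oil. In deficient against control corn oil 1.45% were higher. Lower ones made up 0.131% in control fish against control corn oil and 2.27% in deficient fish against deficient corn oil. The median difference of the 10 genes was 0.71 in the necrotic against the control corn oil kidneys, beside 0.06 over all probe sets, and -0.46 in control fish oil against control corn oil, beside 0.03.

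The choline effect was then set against the oil in one contrast. The necrotic minus control difference under corn oil exceeded the deficient minus control difference under fish oil by 3.75 ± 0.46 for Mmp7 (adjusted p = 0.00257) and by 2.59 ± 0.42 for Timp1 (adjusted p = 0.00771). For Timp3 this difference between the differences was -0.95 ± 0.21 (adjusted p = 0.0269). It was lost without necrotic replicate 2, either control corn oil array, either deficient fish oil array or control fish oil replicate 2, with adjusted p from 0.0708 to 0.110. These 2 positive and 1 negative calls stand beside 3.82% of probe sets called positive and 4.9% negative. With the deficient corn oil kidneys in place of the necrotic ones, 0 of the 10 genes passed in limma, against 0.103% of probe sets called; at an unadjusted p under 0.05 there were 4 of the 10 genes and 2892 probe sets. The largest of these differences were 1.86 ± 0.46 for Mmp7 (adjusted p = 0.270), 1.83 ± 0.56 for Mmp12 (adjusted p = 0.375) and 1.81 ± 0.42 for Timp1 (adjusted p = 0.225). Mmp9, the other of the 4 genes, had the opposite sign, with -1.43 ± 0.34 (limma adjusted p = 0.253). Without deficient corn oil replicate 1, Mmp7 reached 2.43 (adjusted p = 0.025) and Timp1 2.34 (adjusted p = 0.0187). Without replicate 2 of that group both were at 1.28, with adjusted p of 0.262 for Mmp7 and 0.172 for Timp1.

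**Figure D3:**
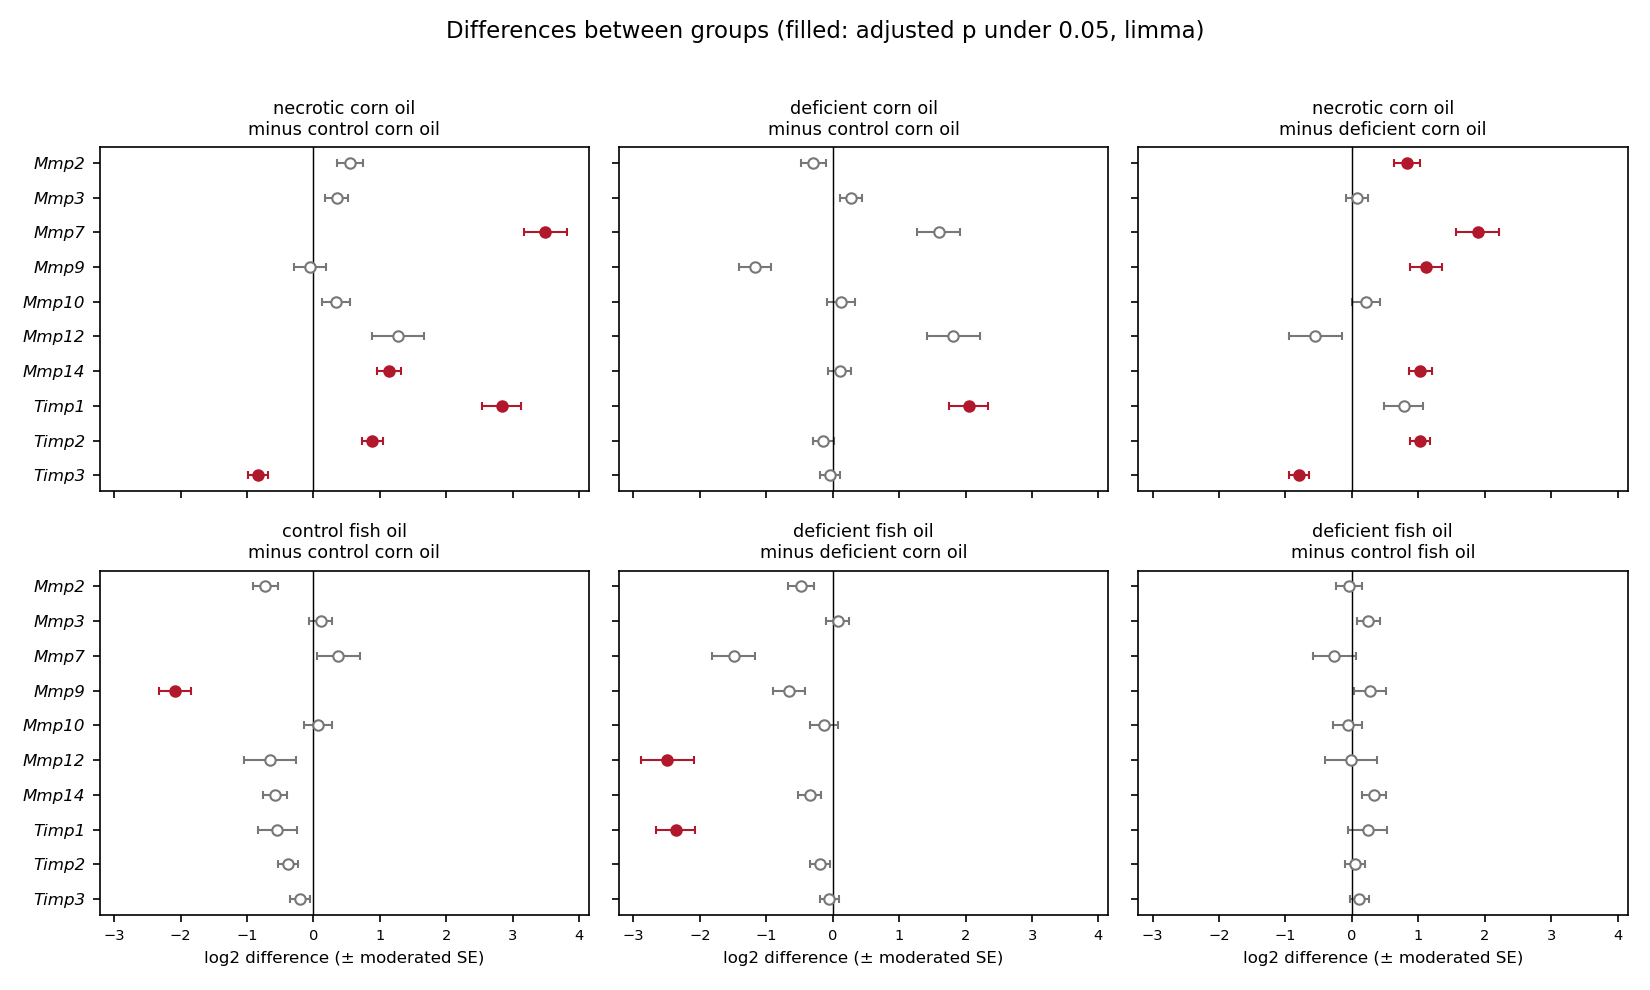
Log2 difference between groups (horizontal axis, ± moderated SE) of the 10 genes in 6 comparisons, each group of 2 pools; filled points passed an adjusted p of 0.05 in limma. Filled points gather in the 2 panels with the necrotic pools against other corn oil kidneys, and the panel of choline deficiency under fish oil has none.

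Fish oil and corn oil arrays were also compared without regard to choline, a split chosen after the values were seen. In 5 of the 10 genes (Mmp2, Mmp9, Mmp12, Mmp14 and Timp1) all 4 fish oil arrays lay below all 6 corn oil arrays, a pattern held by 3.85% of probe sets. In Mmp7, Mmp12 and Timp1 the 4 corn oil arrays without choline lay above the other 6 (6.12% of probe sets). In Mmp2, Mmp7, Mmp14, Timp1 and Timp2 the 2 necrotic arrays lay above the other 8 (14.9% of probe sets), and in Timp3 below them (13.3%).

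Among the other metalloproteinases and Timp4, 15 genes were measured. Of these, 4 rose and 1 fell in the necrotic against the control corn oil kidneys, with a median difference of 0.18 beside 0.05 over all named genes. Of all named genes 13.3% rose and 14.8% fell in that comparison, the background for each list count in it. Mmp19 rose by 1.26 ± 0.16 (adjusted p = 0.00111) and Mmp23 by 0.56 ± 0.17 (adjusted p = 0.0454). Timp4 fell by 1.02 (SE 0.15, adjusted p = 0.00193), the same direction as Timp3. In the deficient against the control corn oil kidneys 0 of the 15 passed in limma, with 2 higher and 3 lower at an unadjusted p under 0.05.

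ADAM and ADAMTS proteases, the sheddases and aggrecanases related to metalloproteinases and inhibited in part by TIMP3, rose in 9 of 14 measured genes in the necrotic against the control corn oil kidneys, with a median of 0.57. None fell in limma, at an unadjusted p under 0.05 either. Adamts1 rose by 2.09 ± 0.18 (adjusted p = 0.000165) and Adamts4 by 1.73 ± 0.16 (adjusted p = 0.000226). Both also rose in the deficient against the control corn oil kidneys, by 1.86 ± 0.18 (adjusted p = 0.00384) and 1.43 ± 0.16 (adjusted p = 0.00603), while Adamts5 fell by 0.74 (SE 0.14, adjusted p = 0.0469). Adamts1 was lower in deficient fish oil than in deficient corn oil kidneys, with a difference of -2.37 ± 0.18 (adjusted p = 0.00084).

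Plasmin is a known activator of pro-metalloproteinases. Of 11 genes of the plasminogen system and the proprotein convertases, 2 rose and 2 fell in the necrotic against the control corn oil kidneys, counts near the 13.3% and 14.8% of all named genes. Plaur, the urokinase receptor, rose by 1.78 ± 0.17 in the necrotic and by 1.69 ± 0.17 in the deficient corn oil kidneys (adjusted p = 0.0046 in the second). Serpinf2, the plasmin inhibitor, fell by 1.52 on the log2 scale in the necrotic against the control corn oil kidneys.

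Among 14 measured binding partners and inhibitors other than TIMPs, 7 rose and 0 fell in the necrotic against the control corn oil kidneys in limma, with a median of 0.59 and 1 lower at an unadjusted p under 0.05. A2m, the plasma protease trap alpha-2-macroglobulin, read 10.49 and 10.94 in the necrotic pools and between 6.28 and 7.62 on the other 8 arrays, a rise of 4.08 ± 0.26 over control corn oil. Lcn2, a lipocalin that binds MMP9 and is a marker of tubular injury, rose by 3.60 ± 0.31 in the necrotic and by 2.50 ± 0.31 in the deficient corn oil kidneys. Cd44, a docking receptor of MMP9 and MMP14, rose by 2.48 ± 0.30 in the necrotic corn oil kidneys. Reck, a membrane-anchored inhibitor of several metalloproteinases, read between 8.43 and 9.32 over all arrays.

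Matrix substrates, among them collagens, laminins and versican, rose in 9 of 16 measured genes and fell in 2 in the necrotic against the control corn oil kidneys, with a median of 0.92. Vcan rose by 2.25, Col1a1 by 1.88, Col1a2 by 1.75 and Col3a1 by 1.40. In the deficient against the control corn oil kidneys 0 of 16 passed in limma, and 0 at an unadjusted p under 0.05, with a median of -0.08, so that Timp1 passed in a comparison where none of these substrates did. In control fish oil against control corn oil 0 of 16 passed as well, with 8 lower and 0 higher at an unadjusted p under 0.05.

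Transcription factors of the AP-1 and Ets families, which bind metalloproteinase promoters, rose in 8 of 11 measured genes in the necrotic and in 5 of 11 in the deficient corn oil kidneys against control corn oil, and 0 fell in either in limma, also at an unadjusted p under 0.05. The medians were 0.80 and 0.94, and over all named genes 1.45% rose and 0.303% fell in the second comparison. Fosl1, Fosl2 and Junb code for AP-1 subunits. Fosl1 rose by 1.31 ± 0.20 in the necrotic and by 1.61 ± 0.20 in the deficient corn oil kidneys (adjusted p = 0.00833 in the second). Junb rose by 1.64 ± 0.22 in both (adjusted p = 0.0133 in the deficient kidneys), with 9.54 and 9.58 in the control and 11.33 and 11.08 in the deficient corn oil pools. Fosl2 rose by 1.50 ± 0.17 and 1.38 ± 0.17. In deficient fish oil against deficient corn oil kidneys 5 of the 11 were lower, beside 2.27% of all named genes, among them Junb (-1.62), Fosl1 (-1.08) and Fosl2 (-0.93). Of the searched members whose windows carry the AP-1 motif, Mmp7 rose in the necrotic kidneys and missed the threshold in the deficient ones (limma adjusted p = 0.0625). Mmp12 passed in neither against control corn oil (adjusted p = 0.0529 and 0.0773), and Mmp3 and Mmp10 passed in no contrast. Timp1, whose window held no exact match, rose in both. Whether these factors act on these genes was not tested.

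**Figure D4:**
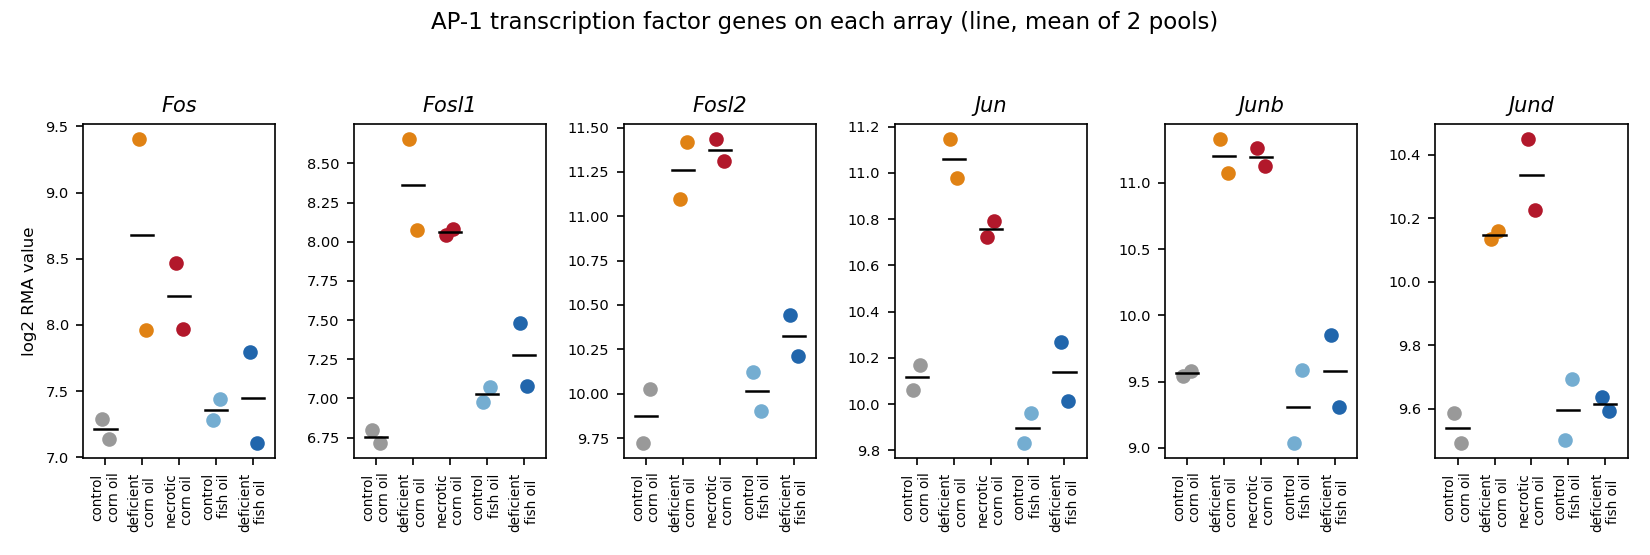
Log2 RMA value (vertical axis, with its own range for each gene) of 6 AP-1 subunit genes on every array; a point is 1 pool and a line the mean of 2 pools. Deficient and necrotic corn oil pools overlap in Fos, Fosl1, Fosl2 and Junb, and both lie above the control corn oil and all fish oil pools in each gene shown.

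Whole kidney holds many cell types, and in bulk RNA fewer cells of a type and less RNA per cell cannot be told apart. Marker genes of other cell types moved with the members, and their part in the results was not tested. The mean over 7 measured macrophage markers was 9.65 and 9.68 in the necrotic, 8.13 and 8.65 in the deficient and 7.49 and 7.62 in the control corn oil pools, and 7.32 to 7.38 in the fish oil pools. Of these 7 markers 6 rose in the necrotic and 1, Cd14, in the deficient corn oil kidneys against control corn oil, and 4 were lower in deficient fish oil than in deficient corn oil. Between the necrotic and deficient corn oil pools this list mean was higher in the necrotic ones, whereas Mmp12 differed by -0.55 ± 0.40 (limma adjusted p = 0.484). That Mmp12 difference was 0.088 without necrotic replicate 1 and -1.18 without necrotic replicate 2. In the same comparison 5 of the 7 macrophage markers were called higher in the necrotic pools and 1, Adgre1, lower.

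The 5 injured tubule markers all rose in both corn oil groups without choline, with list means of 13.10 and 13.16 in the necrotic, 11.95 and 12.64 in the deficient and 9.81 and 9.79 in the control corn oil pools. Deficient fish oil pools read 10.71 and 9.85 and control fish oil pools 9.62 and 9.70. Replicate 2 was the higher deficient corn oil pool in this list, in the macrophage list and in all of the 10 genes except Mmp9 and Timp3. It was also higher in the fibroblast, neutrophil, endothelial and podocyte lists. In the proximal tubule, thick ascending limb and distal tubule, and collecting duct lists it was lower. The array median was 7.29 in replicate 1 and 7.41 in replicate 2 of that group. The 6 fibroblast and pericyte markers had means of 11.38 and 11.57 in the necrotic, 10.42 and 10.58 in the deficient and 10.45 and 10.51 in the control corn oil pools, and 9.92 to 10.11 in the fish oil pools. By group means, Mmp2, Mmp14, Timp1 and Timp2 likewise had the necrotic pools at the top and both fish oil groups at the bottom. The macrophage and neutrophil lists had them so too, though necrotic and deficient corn oil pools overlapped in the neutrophil list. Of the fibroblast and pericyte markers 5 rose in the necrotic against the control corn oil kidneys.

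Neutrophils store MMP9 and MMP8 in granules. The 7 neutrophil markers had means of 6.96 and 6.44 in the necrotic, 6.39 and 6.48 in the deficient and 6.05 and 6.10 in the control corn oil pools, 5.99 and 5.92 in the deficient fish oil pools and 6.15 and 5.93 in the control fish oil pools. Between control fish and control corn oil 0 of the 7 neutrophil markers and 0 of the 7 macrophage markers passed in limma (1 higher and 1 lower, and 2 lower, at an unadjusted p under 0.05), and 1 of the 6 fibroblast markers, Lum, was lower, with a difference of -1.30 ± 0.16 (adjusted p = 0.0277). At an unadjusted p under 0.05, 3 of the 6 fibroblast markers were lower and 0 higher, with a median of -0.36. The list means of control corn and control fish oil pools did not overlap for the fibroblast list. Nor did they for the macrophage, injured tubule, proximal tubule, thick ascending limb and distal tubule, and collecting duct lists, each lower in control fish oil. The 7 proximal tubule markers, which check the labelled tissue, had means of 12.68 to 13.14 outside the necrotic pools and of 10.94 and 10.79 in them, where 6 of 7 fell against control corn oil, beside the fall of Timp3. The 5 markers of the thick ascending limb and distal tubule all fell there too, with a median of -3.27, and so did 3 of 4 collecting duct, 2 of 4 podocyte and 3 of 5 endothelial markers.

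**Figure D5:**
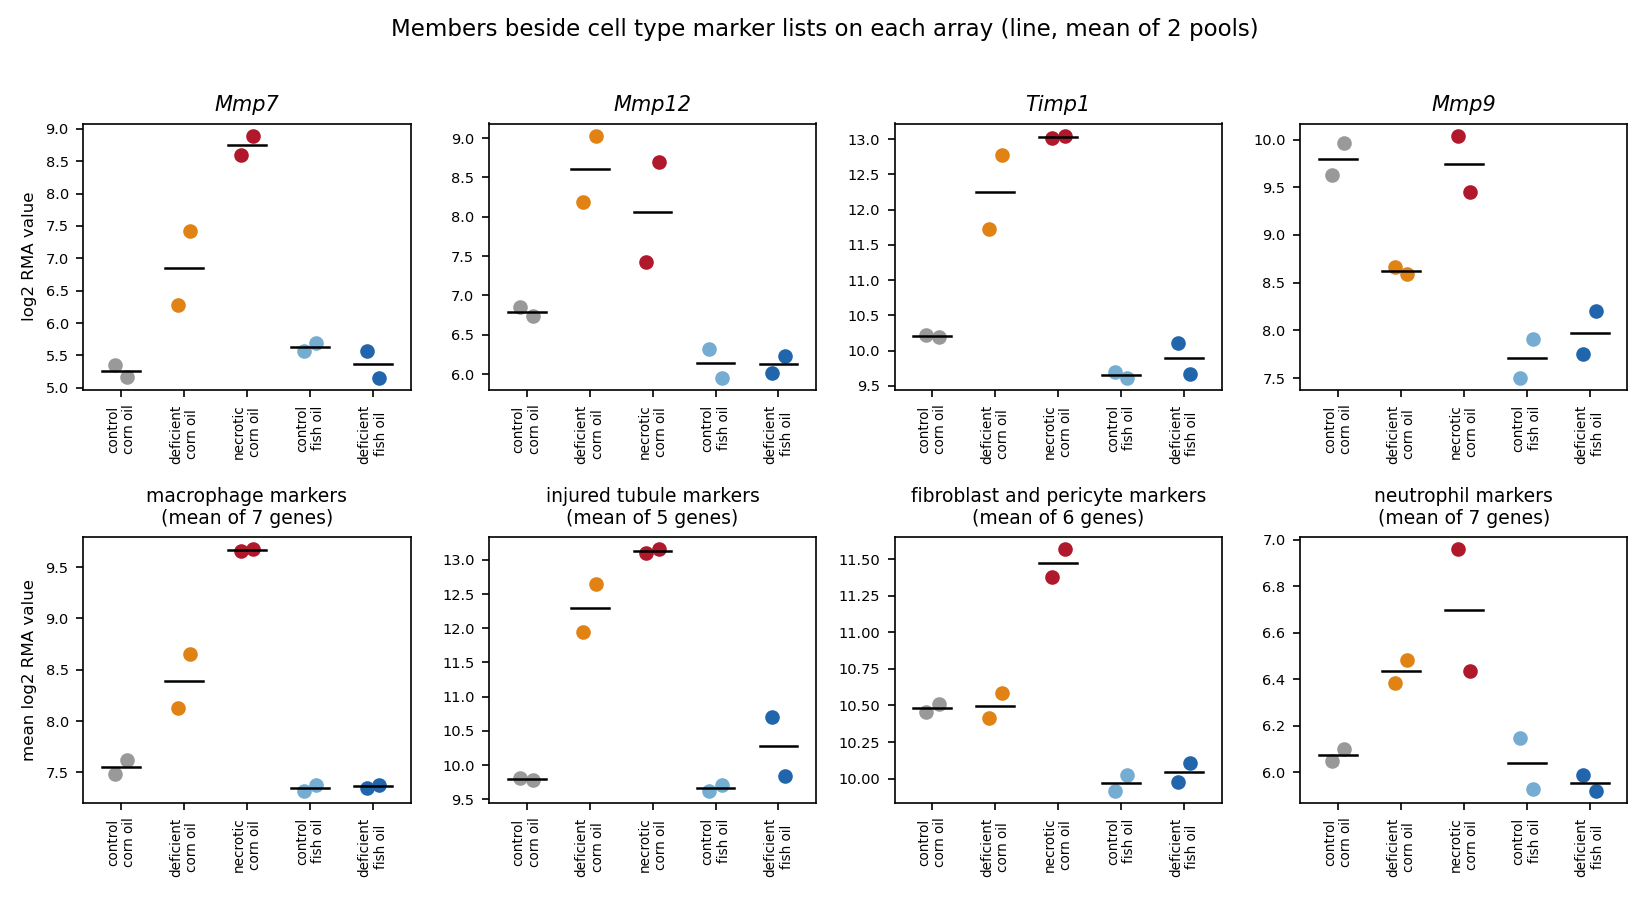
Log2 RMA value (vertical axes, with their own ranges) of Mmp7, Mmp12, Timp1 and Mmp9 above the mean log2 value of 4 marker lists; a point is 1 pool and a line the mean of 2 pools. Macrophage and injured tubule lists step up as Mmp7 and Timp1 do. The fibroblast and pericyte list, like Mmp9, is lower in control fish oil than in control corn oil, and so are the macrophage and injured tubule lists.

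Genes most like each member were found by the root mean square difference of log2 values, each gene centred on its own mean over the 10 arrays, as a description. Nearest to Mmp7 were Slc16a3 (0.227), a lactate transporter, Lilrb4 (0.253), a myeloid receptor, and Itgam (0.267), the CD11b integrin. Nearest to Timp1 were Tubb6 (0.188), Slc34a2 (0.245) and Fcgr2b (0.270), and to Mmp12 Lypd8l1 (0.310), Reg3g (0.313) and Ripk3 (0.379). Mmp9 had no near match, its closest being Smoc2 (0.370), Nnat (0.404) and Prom1 (0.422), against a spread of Mmp9 around its own mean of 0.893. Mmp2 lay nearest to Aebp1 (0.114), Marcks (0.136) and Mmp23 (0.139), and Timp2 to Aebp1 (0.088), Dysf (0.0947) and Col4a1 (0.0974), so Mmp2 and Timp2 shared their nearest gene. Mmp14 lay nearest to Gli3 (0.0996), Emp1 (0.106) and S1pr2 (0.126), and Timp3 to Tmem45b (0.0898), Napsa (0.0929) and Ppic (0.0947). Mmp3 and Mmp10 varied little (0.192 and 0.215 around their means), so that their nearest genes, Zfp483 (0.0573) and Or6c3 (0.0758), are genes that varied as little.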

How the data were processed

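Kidney RNA of 10 pools of 3 rats each was measured on 1 array per pool. The authors deposited log2 intensities for each probe set, made with RMA per the submitters' processing notes. The software and version behind RMA were not given in the sources used here, nor was the definition of the probe sets. The values were taken as deposited, with no further scaling or filter. The platform annotation lists 15633 of the 29214 probe sets, 15310 of them with 1 symbol and 323 with several. RefSeq gene names were matched by Entrez number for 15279, which changed 0 symbols and gave 14506 named genes. Array positions were not used, and promoter sequences with their coordinates are RefSeq's on GRCr8.

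Groups were taken from the sample labels. One fit in limma 3.58.1 (lmFit and eBayes, under R 4.3.3) held all 5 groups and 9 contrasts (residual degrees of freedom 5, prior 3.59). Within each contrast the p-values of all probe sets were adjusted by Benjamini-Hochberg, and "rose" and "fell" refer to an adjusted p under 0.05. The method was also run on simulated data with independent noise, a simpler setting than these arrays, and no conclusion here rests on it. Where a gene in a list had several probe sets, the brightest on average stood for it. The 10 genes and all lists were chosen with earlier results of these data known. All 10 genes were named, and, per contrast and list, up to 4 called genes with the largest difference; the 3 genes most like each member and marker genes were named too. The values of Mmp13, Mmp28, Fos, Reck and Mpo, and the naming of Adgre1, were picked after they were seen. Alternatives were median centring, a repeat of quantile normalization, a filter that drops means under the 25th percentile, a robust prior with a trend, a fit on the compared groups alone, the replicate number as a block, and leaving out each array. Python 3.11.15 with pandas 2.3.3, numpy 2.4.6 and matplotlib 3.10.9 made the tables and plots.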

Additional observations from a re-analysis of the deposited data

Results flagged for a closer look

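In 3 genes the choline comparison differed between the oils by a test of the difference itself. Each value is the necrotic minus control difference under corn oil less the deficient minus control difference under fish oil, on the log2 scale. It was 3.75 ± 0.46 for Mmp7 (limma adjusted p = 0.00257), made up of 3.49 under corn oil and -0.26 under fish oil. It was 2.59 ± 0.42 for Timp1 (adjusted p = 0.00771), made up of 2.83 and 0.24. It was -0.95 ± 0.21 for Timp3 (adjusted p = 0.0269), made up of -0.84 and 0.11. The contrast sets kidneys labelled necrotic against fish oil kidneys without that label, so oil and the label cannot be told apart in it.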

How the results depend on the processing

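With 2 pools per group, the spread between pools limits every call. Of 26 called differences of the 10 genes, 14 held in every refit; under settings other than leaving out an array 147 of 156 refits kept the call, the 9 losses all coming from the fit on the compared groups alone, and 0 reversed. Leaving out 1 array kept 85 of 116; the lone pool is then assumed to vary like the other groups. The filter left out Mmp10, and the mean of all probe sets of a gene could give no other value with 1 probe set each.

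Counts of the 10 genes called moved as follows. Deficient minus control corn oil (1) gave 3 with the filter, 3 with the trend and robust prior and 0 with the compared groups alone. The compared groups alone gave 1 for necrotic minus deficient corn oil (6), 0 for control fish minus control corn oil (1) and 0 for deficient fish minus deficient corn oil (2). Over all probe sets, deficient minus control corn oil (330) gave 540 with the prior and 82 with the compared groups alone, and necrotic minus deficient corn oil (2860) gave 654 with the latter. Control fish minus control corn oil (54) gave 115 with the filter, 124 with the prior and 5 with the compared groups alone, where deficient fish minus deficient corn oil (507) gave 25. The interaction of choline and oil with the deficient kidneys (30) gave 61, 67 and 14 in that order.

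The replicate numbers did not pair the pools: deviations from group means correlated at -0.173 to 0.136 over 10 pairs of groups. With the replicate block the interaction with the necrotic kidneys called 5 of the 10 genes in place of 3. It added Mmp14 (0.80, limma adjusted p = 0.0301) and Timp2 (0.84, adjusted p = 0.0206), and the interaction with the deficient kidneys called 11 probe sets. Timp2 had a limma adjusted p of 0.0512 in the main fit of the necrotic interaction. It also passed with quantile normalization (0.0304), the filter (0.0341) and the trend and robust prior (0.0275). In the necrotic against the control corn oil kidneys the block added Mmp2 (0.54, limma adjusted p = 0.0212) and Mmp12 (1.27, adjusted p = 0.0471). There Mmp2 also passed with quantile normalization (limma adjusted p = 0.0460) and Mmp12 with the filter (0.0391).

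Leaving out 1 array gave 0 to 2 genes and 32 to 714 probe sets for deficient minus control corn oil, 2 to 5 and 1040 to 3125 for necrotic minus deficient corn oil, 0 and 3 to 6 for control fish minus control corn oil, 0 to 3 and 87 to 691 for deficient fish minus deficient corn oil, and 7 to 8 and 3324 to 4254 for deficient fish minus necrotic corn oil. It gave 5 to 6 and 3003 to 4638 for necrotic minus control corn oil, 0 and 0 to 2 for choline under fish oil, 0 to 2 and 0 to 90 for the interaction with the deficient kidneys, and 2 to 4 and 955 to 1847 for that with the necrotic kidneys.

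Some uncalled differences changed sign. Under other settings these were Mmp12 for choline under fish oil (0.034, quantile), Timp3 for deficient fish minus deficient corn oil (0.011, median centring) and Mmp3 in the interactions with the deficient (-0.034 median, -0.085 quantile) and the necrotic kidneys (-0.0058 median, -0.017 quantile). Leaving out 1 array gave -0.34 to 0.25 for Mmp9 in necrotic minus control corn oil. In deficient minus control corn oil it gave -0.13 to 0.38 for Mmp10, -0.10 to 0.31 for Mmp14 and -0.14 to 0.056 for Timp3. In necrotic minus deficient corn oil it gave -0.083 to 0.24 for Mmp3, -0.047 to 0.47 for Mmp10 and -1.18 to 0.088 for Mmp12. For choline under fish oil it gave -0.27 to 0.18 for Mmp2, -0.20 to 0.17 for Mmp12, -0.12 to 0.22 for Timp2 and -0.023 to 0.25 for Timp3. In control fish minus control corn oil it gave -0.078 to 0.29 for Mmp3 and -0.095 to 0.22 for Mmp10. In deficient fish minus deficient corn oil it gave -0.083 to 0.24 for Mmp3, -0.38 to 0.13 for Mmp10 and -0.15 to 0.048 for Timp3. In deficient fish minus necrotic corn oil it gave -0.13 to 0.13 for Mmp3. In the interactions it gave -0.16 to 0.21 for Mmp3 and -0.067 to 0.45 for Mmp10 with the deficient, and -0.078 to 0.29 for Mmp3 with the necrotic kidneys. The cause of these changes was not tested.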

Other observations

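Mmp19 and Mmp28, which are outside the gene cluster, also moved with the necrotic label. Mmp28, an epithelial metalloproteinase also called epilysin, was higher in the necrotic than in the control corn oil kidneys by 0.51 ± 0.12 (limma adjusted p = 0.0199) and than in the deficient corn oil kidneys by 0.52 ± 0.12 (adjusted p = 0.0325). Mmp19 was higher in the necrotic than in the deficient corn oil kidneys by 0.97 ± 0.16 (adjusted p = 0.00874), with 8.003 and 8.33 against 7.05 and 7.34. Timp4 read 7.37 and 7.19 in the necrotic pools and between 7.87 and 8.39 on the other 8 arrays, so that its groups were split as those of Timp3 were.

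Fos, an AP-1 subunit, read 9.40 in deficient corn oil replicate 1 and 7.96 in replicate 2, whereas Mmp7, Mmp12 and Timp1 were higher in replicate 2 of that group. The AP-1 genes were divided: Fosl1, Jun and Junb were higher in replicate 1, and Fosl2 and Jund in replicate 2. A count of probe sets at least 2-fold apart between the pools of a group gave 488 for deficient corn oil, 473 for control fish oil, 391 for necrotic corn oil, 271 for deficient fish oil and 166 for control corn oil.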
